A study of Mus musculus with 4 samples.

Results

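Myl9, the regulatory light chain of smooth muscle and non-muscle myosin II, was followed together with 9 other genes of the smooth muscle contractile apparatus, Tagln, Tagln2, Acta2, Actg2, Cnn1, Cnn2, Tpm1, Tpm2 and the transcription factor gene Srf. These 10 genes, out of 36039 gene names on the array, were taken by name, and all 18 probes that carry those names in the scanner files were used. Myl9 was selected on the difference between CHQ and ELA in these same arrays, so that difference is a description here. Its values in the other comparisons share the CHQ or the ELA array with that difference and are not independent of the selection. The other 9 were chosen as genes known to depend on serum response factor (SRF). The question was whether they followed Myl9.

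RNA came from the mouse embryonic stem (ES) cell line E14Tg2A of strain 129/Ola, and each of the 4 groups was measured on 1 Agilent array that held a pool of 3 experiments. ES cells were taken at day 0 from medium with serum and leukemia inhibitory factor (LIF). Epiblast-like aggregates (ELA) were the same cells after 2 days as floating aggregates in a chemically defined minimal medium, a model of the primed epiblast. The other two groups were ELA formed in the presence of 50 nM 5-azacytidine (AZA), which inhibits DNA methyltransferases, or of 100 μM 5-carboxy-8-hydroxyquinoline (CHQ), which inhibits histone lysine demethylases. Because each group is a pool on 1 array of 1 cell line, there were no replicates and no p-value was computed, and the spread between experiments is not known. The ES and ELA arrays lay on slide 1 and the AZA and CHQ arrays on slide 2, so that slide and treatment cannot be told apart when a treated array is set against ELA. The comparisons of ELA with ES and of CHQ with AZA lie within a slide.

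SRF binds a short A/T-rich element, the CArG box, near the start of many genes of the actin cytoskeleton. Its cofactors of the myocardin-related family (MRTF) are held in the cytoplasm by monomeric actin and enter the nucleus when actin polymerises, whereas the cofactors of the Elk family link SRF to growth factor signalling and to immediate early genes. The contractile genes are best known from differentiated smooth muscle, but many are also made in other adherent cells, where actin filaments, tropomyosin and myosin II form stress fibres and the cell cortex.

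CArG boxes were looked for in the 8 members that have an entry in a RefSeq promoter table (build GRCm38.p6), which spans 250 bases before to 50 bases after the start site. Tagln and Actg2 have no entry there. The box, read as CC, any 6 letters of A or T, and GG, is the same on both strands. It was found upstream of Myl9, Cnn2 and Srf and in none of the windows of Acta2, Tagln2, Cnn1, Tpm1 and Tpm2. Of all 32851 promoter entries, 1.63% held at least 1 box. In the lists of further SRF targets and myosin genes read below, 12 of the 54 genes with an entry held a box in 1 or more of their entries. That count is by gene, and some genes have several entries, so it is not of the same kind as the share of entries. A looser form with 1 C or G among the middle letters was present in 8.5% of entries and in the windows of Myl9 and Acta2. The 4 stretches below show these elements beside the genes whose levels the results turn on. They are written 5′ to 3′ on the strand of the gene, all lie upstream of the start site, and the capitals mark the CArG boxes of Myl9, Cnn2 and Srf and the looser boxes of Acta2.
Myl9, chr2:156775273-156775342, plus strand: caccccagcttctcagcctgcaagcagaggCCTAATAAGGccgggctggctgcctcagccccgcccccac
Cnn2, chr10:79988514-79988583, plus strand: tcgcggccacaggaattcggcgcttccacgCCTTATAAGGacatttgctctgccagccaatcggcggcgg
Srf, chr17:46556185-46556274, minus strand: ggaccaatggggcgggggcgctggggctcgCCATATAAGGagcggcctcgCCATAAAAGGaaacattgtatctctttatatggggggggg
Acta2, chr19:34255374-34255487, minus strand: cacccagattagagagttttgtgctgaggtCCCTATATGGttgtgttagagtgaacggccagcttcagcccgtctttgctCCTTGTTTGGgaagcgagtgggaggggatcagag
Counted from the start site, the box began at position -161 in Myl9 and at -56 in Cnn2. In Srf the boxes began at -82 and -62, and in Acta2 the looser boxes began at -84 and -34. A match of letters is a description of the promoter and not a measured binding site.

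Comparisons are written as differences, with CHQ − ELA for CHQ minus ELA. Levels are given as log2 of the background-corrected and quantile-normalised spot intensity, and a difference of 1 on this scale is a change of 2-fold. Intensities depend on the probe and were compared between arrays only, and in the sums over marker lists the weight of each gene depends on its probe. A spot counted as detected where the scanner software Feature Extraction marked it as well above background, which held for 55.1% to 69.2% of gene spots. The lowest such signals lay between 6.41 and 6.74, which is called the floor here. The local background was higher on slide 1 (median 59 and 77) than on slide 2 (14 and 13). None of the member spots was saturated or an outlier, and 9 of the 10 members were detected on every array, the exception being Actg2. A gene was called higher or lower when its brightest probe differed by at least 1, with a mean of at least 7.5 over both arrays and detection on either array. The error model of the scanner software gave an error of 0.20 to 0.21 for a difference between arrays at each member probe with a single spot, apart from Actg2. That error covers the reading of a spot and no biological variation.

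All 4 markers of pluripotent cells were detected on every array. Pou5f1, which encodes Oct4, was at 14.95 in ES, 14.46 in ELA, 14.05 in AZA and 13.56 in CHQ, and Sox2, its partner factor, at 13.43, 12.77, 13.76 and 13.41. Zfp42, a marker of the naive state, was at 15.80, 11.99, 15.72 and 15.04, and Nanog at 15.03, 12.53, 15.39 and 12.54 on its brightest probe. The other Nanog probe turned the sign of ELA − ES (0.23 in place of -2.50) and AZA − ELA (-1.55 in place of 2.86). It also turned the sign of CHQ − ELA (-1.01 in place of 0.01) and CHQ − AZA (0.53 in place of -2.85). The summed intensity of the 4 was 132900 in ES, 39480 in ELA, 128000 in AZA and 62730 in CHQ, so this list was lowest in ELA. Among the members this held for Tagln2 alone, at its brightest probe and not at its other probe. The part of these pluripotency markers in the values of the members was not tested. Of 7 markers listed for differentiated smooth muscle, 3 that define it were close to the floor on every array. Myh11, the smooth muscle myosin heavy chain, was at 6.66, 6.57, 6.59 and 6.86 in ES, ELA, AZA and CHQ, Lmod1, an actin filament nucleator, at 6.35, 5.95, 6.14 and 6.16, and Myocd, the muscle-restricted SRF cofactor, at 6.57, 6.72, 6.41 and 7.02. Lmod1 was detected on no array. Others of the list were not at the floor. Smtn, the actin-binding smoothelin, was at 12.33, 13.04, 13.03 and 12.28, Des, the intermediate filament desmin, at 8.79, 8.82, 8.60 and 8.29, and the integrin gene Itga8 at 8.78, 7.19, 7.72 and 11.25. Kcnmb1, a potassium channel subunit gene, was detected in ES and ELA (7.07 and 7.34) and not in AZA and CHQ, where it was at least 1.90-fold and 1.87-fold lower than in ELA. The summed intensity of all 7 was 6445 in ES, 9424 in ELA, 9276 in AZA and 8125 in CHQ, with 4 or 5 of them detected, and Smtn was the largest term on every array. In such bulk RNA, fewer cells that express a gene and less RNA per cell cannot be told apart.

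Myl9 was bright in both untreated states and dim in both treated ones. The probe (chr2:156607301-156607360, build mm9 as given in the files) had a single spot per array, and its uncorrected mean signal was 43786 intensity units in ES, 26673 in ELA, 1498 in AZA and 185 in CHQ, over a local background of 59, 78.5, 13 and 14. After normalisation the level was 15.06 in ES, 14.72 in ELA, 10.61 in AZA and 7.79 in CHQ. The untreated arrays thus lay highest, AZA lay far below them and CHQ lowest of all, though still detected. The log2 difference was -0.35 for ELA − ES, -4.11 for AZA − ELA and -6.93 for CHQ − ELA, a 122-fold lower intensity. Within slide 2, CHQ was lower than AZA by a log2 difference of -2.82, or 7.04-fold. Among all genes tested, Myl9 ranked 14 from the lowest in AZA − ELA, 28 in CHQ − AZA and 3 in CHQ − ELA. The lower ranks in CHQ − ELA were held by a RIKEN clone and a probe without a gene name. Over the processing settings tried, CHQ − ELA ranged from -7.58 to -6.74 and AZA − ELA from -4.48 to -4.08, while ELA − ES ranged from -1.08, with scaling to spike-in probes, to -0.33.

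**Figure D1:**
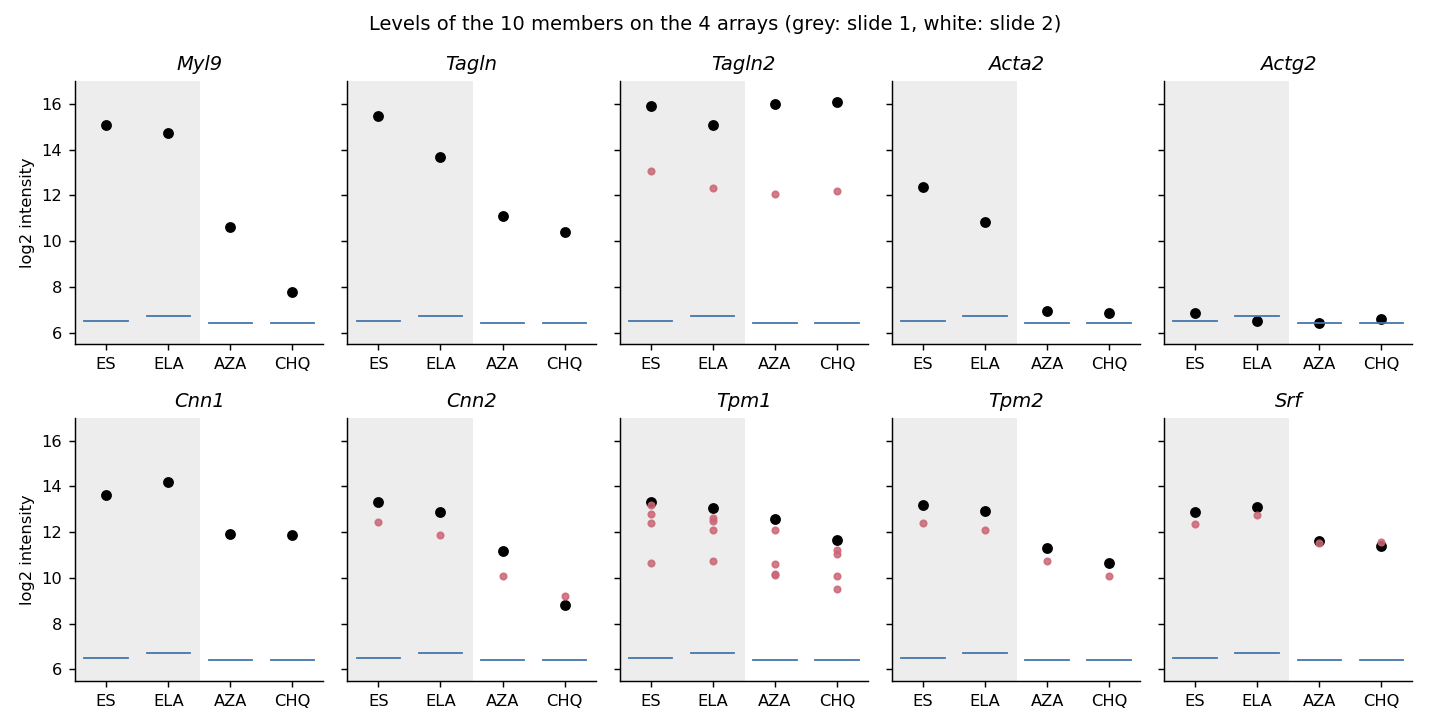
Log2 intensity (y axis) of the 10 members on the 4 arrays (x axis), with 1 panel per gene. Black points are the brightest probe, red points the other probes of that gene, blue lines the lowest signal well above background on each array, and grey shading marks slide 1; Myl9 goes from 14.72 in ELA to 7.79 in CHQ, while Tagln2 stays between 15.09 and 16.07.

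The smooth muscle actin Acta2 was lower in ELA than in ES and lower again, near the floor, in both treatments. Its probe (chr19:34316060-34316119, mm9) was spotted 10 times per array, which makes it the member with the best measured reading error. The level was 12.37 ± 0.20 (SD, n = 10 spots) in ES, 10.83 ± 0.21 in ELA, 6.97 ± 0.08 in AZA and 6.88 ± 0.11 in CHQ. None of the spots overlapped between ES and ELA or between ELA and either treatment, whereas the spots of AZA (6.88 to 7.09) and CHQ (6.74 to 7.05) overlapped. The log2 difference was -1.54 for ELA − ES, -3.86 for AZA − ELA, -3.95 for CHQ − ELA and -0.09 for CHQ − AZA. Both treated levels lay within 1 log2 unit of the floor, and the size of the difference moved with the processing. It ranged from -5.08 to -3.57 for AZA − ELA and from -5.33 to -3.65 for CHQ − ELA over the settings tried, and stayed a call in each.

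**Figure D2:**
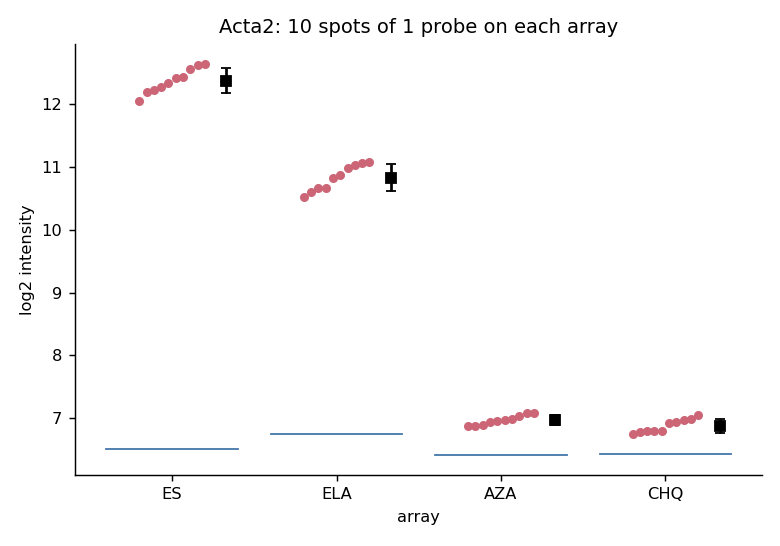
Log2 intensity (y axis) of the 10 spots of the Acta2 probe on each array (x axis). Red points are spots in order of their value, the black square and bar are their mean and SD, and the blue line is the lowest signal well above background on that array; the mean is 10.83 in ELA and 6.97 and 6.88 in AZA and CHQ.

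Actg2, the enteric smooth muscle actin (probe chr6:83462904-83462963, mm9), was at 6.88 in ES, 6.53 in ELA, 6.43 in AZA and 6.62 in CHQ. It was not detected in ELA and AZA and its mean never reached 7.5, so it was not tested in any comparison and no fold is given. It was thus near the floor in all 4 groups.

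Tagln encodes transgelin (SM22), an actin-bundling protein and an early marker of smooth muscle. On a single probe (chr9:45738097-45738156, mm9) its level was 15.47 in ES, 13.69 in ELA, 11.12 in AZA and 10.40 in CHQ, so that each array stood apart from the next by more than the reading error. The log2 difference was -1.78 for ELA − ES, -2.57 for AZA − ELA, -3.29 for CHQ − ELA and -0.72 for CHQ − AZA, the last being short of a call. Tagln and Acta2 were the only members called in ELA − ES at this setting, both lower in the primed state.

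Its paralogue Tagln2, the form found in most non-muscle cells, did not follow. The brightest of its probes (chr1:174437450-174437506, mm9) was at 15.90 in ES, 15.09 in ELA, 15.98 in AZA and 16.07 in CHQ, so that ELA was the lowest array. AZA − ELA was 0.89 and CHQ − ELA 0.97, neither of them a call, and they became 0.36 and 0.08 with scaling to the E1A spike-in probes. The other probe was at 13.07, 12.34, 12.07 and 12.21 and gave -0.28 and -0.13 for these differences, so the probes disagreed in sign. CHQ − AZA was 0.09 and turned to -0.15 with scaling to the 75th percentile and to -0.28 with spike-in scaling.

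The calponins bind actin and tropomyosin and restrain myosin. Cnn1, the smooth muscle form (probe chr9:21913058-21913117, mm9), was at 13.61 in ES, 14.21 in ELA, 11.91 in AZA and 11.87 in CHQ. The treated arrays lay side by side and below both untreated ones, with a log2 difference of -2.30 for AZA − ELA and -2.34 for CHQ − ELA and of -0.04 between the treatments, which was 0.05 in the authors' value table. ELA − ES was 0.60, the largest positive value among the members in that comparison, and became -0.09 with spike-in scaling. Cnn2, the more widely expressed form (brightest probe chr10:79457785-79457844, mm9), was at 13.33 in ES, 12.87 in ELA, 11.19 in AZA and 8.81 in CHQ. Unlike Cnn1 it separated the treatments, and CHQ − AZA was -2.39, or 5.23-fold. Cnn2 and Myl9 were the 2 members called between AZA and CHQ. The second Cnn2 probe, 415 bases away, was at 12.46, 11.89, 10.07 and 9.22, and its CHQ − AZA value of -0.85 was not large enough for a call, while the mean of both probes gave -1.62. The CHQ − ELA values of the Cnn2 probes were -4.06 and -2.67.

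Tropomyosins are coiled-coil proteins that lie along actin filaments, and Tpm1 is spliced into many isoforms with different tissue ranges. Tpm1 had 5 probes, and they did not give 1 value. For this reason the sequences of the outermost probes are shown, both from the minus strand of chromosome 9 in mm9. These also had the largest AZA − ELA differences of the 5. In the first, the capitals mark a closing TGA, a stop codon in the frame that starts at its first base, and the second lies 9108 bases upstream in the gene. The exon or UTR of the probes was not assigned here.
Tpm1, probe nearest the 3′ end, chr9:66871166-66871225: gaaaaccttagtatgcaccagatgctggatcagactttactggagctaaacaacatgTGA
Tpm1, probe nearest the 5′ end, chr9:66880274-66880333: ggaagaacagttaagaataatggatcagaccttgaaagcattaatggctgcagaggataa
The 3′ probe was at 13.20 in ES, 12.61 in ELA, 10.59 in AZA and 11.03 in CHQ, and the 5′ probe at 12.42, 12.08, 10.15 and 9.52. On both, AZA − ELA was close to -2, with -2.02 at the 3′ and -1.92 at the 5′ probe, and CHQ − ELA was -1.58 and -2.55. The remaining 3 probes, of which a pair overlaps by 46 bases, changed less with AZA. The brightest of them (chr9:66875796-66875855), at 13.30, 13.05, 12.56 and 11.66, gave -0.49 for AZA − ELA and -1.39 for CHQ − ELA, and the dimmest, at 10.67, 10.75, 10.15 and 10.10, gave -0.61 and -0.66. All 5 probes were lower in both treatments than in ELA, but the CHQ − AZA values ran from -0.90 to 0.44. By the rule of the brightest probe, Tpm1 was called with CHQ and not with AZA, whereas the mean over its probes was called with both (-1.08 for AZA − ELA).

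Tpm2, the tropomyosin gene with a single pair of probes here, behaved alike on both. The brightest probe (chr4:43532262-43532321, mm9) was at 13.18 in ES, 12.91 in ELA, 11.29 in AZA and 10.64 in CHQ, and the other at 12.41, 12.09, 10.72 and 10.07. AZA − ELA was -1.62 and -1.37, CHQ − ELA -2.27 and -2.02, and CHQ − AZA -0.65 on both probes.

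Srf itself was lower in the treated aggregates than in ELA. Its brightest probe (chr17:46685306-46685365, mm9) was at 12.87 in ES, 13.10 in ELA, 11.62 in AZA and 11.39 in CHQ, and the other at 12.35, 12.76, 11.51 and 11.56. The log2 difference was -1.48 and -1.25 for AZA − ELA, by probe, and -1.71 and -1.21 for CHQ − ELA, a 2.78-fold and 3.28-fold lower intensity at the brightest probe. Between the treatments the probes gave -0.24 and 0.04. ELA − ES was 0.23, and -0.45 with spike-in scaling.

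Counted over the list, most members were lower in both treatments. In AZA − ELA, 7 of the 9 members tested were called lower, where 11.4% of all genes tested were called lower. No member was called higher, where 14.3% of all genes were. In CHQ − ELA, 8 of 9 were called lower (11.9% of all genes) and 0 higher (14.8% of all genes). These are Myl9, Tagln, Acta2, Cnn1, Cnn2, Tpm2 and Srf in both comparisons, with Tpm1 added for CHQ. The median over the 10 members was -1.65 for AZA − ELA and -2.30 for CHQ − ELA, against -0.02 and -0.03 over the 28312 genes detected on 1 or more arrays. The comparisons share the ELA array and each holds the slide, so they are not independent of each other. Myl9, selected on its CHQ and ELA values, is 1 of the genes counted in both. On the 4 arrays, 8 of 10 members read lower on both slide 2 arrays than on both slide 1 arrays, where 33% of all genes did.

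Within a slide the members moved less. In ELA − ES, 2 of 9 members tested were called lower (5.59% of all genes) and 0 higher (4.45% of all genes), with a median of -0.35 over the members. With spike-in scaling 5 members were called lower, as were 18.9% of all genes, and the median of all genes shifted to -0.51. In CHQ − AZA, 2 of 8 members tested were called lower (4.81% of all genes) and 0 higher (5.53% of all genes), with a median of -0.44. Myl9 is 1 of these 2, and its CHQ value was part of its selection, so this count is not independent support. For Cnn2, the other gene called, the second probe gave -0.85 and no call. After the 2 members called, Myl9 and Cnn2, came Tpm1, Tagln and Tpm2 with differences between -0.90 and -0.65, and then Srf, Cnn1 and Tagln2 with values between -0.24 and 0.09. Acta2 and Actg2 were too dim for this comparison.

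**Figure D3:**
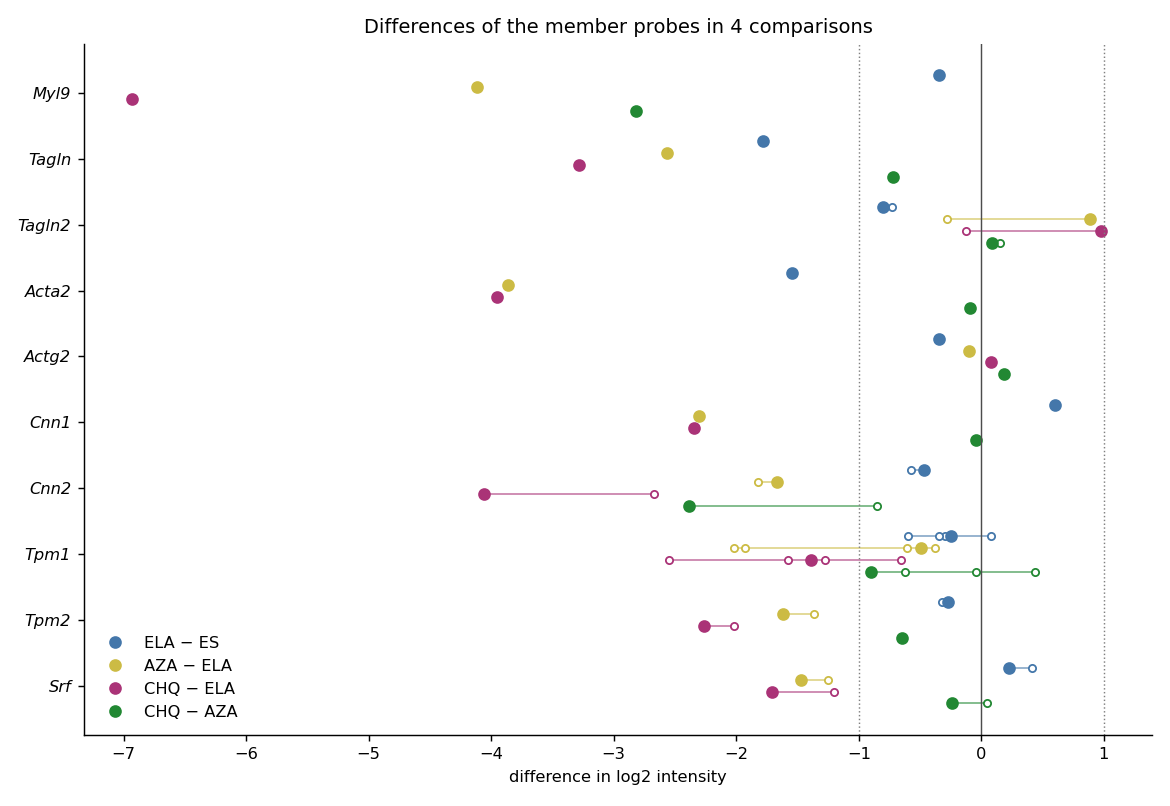
Difference in log2 intensity (x axis) of each member gene (y axis) in the 4 comparisons, told apart by colour. Filled points are the brightest probe, open points the other probes, horizontal lines join the probes of a gene and dotted lines mark a difference of 1 in either direction; CHQ − ELA runs from -6.93 for Myl9 to 0.97 for Tagln2.

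Further genes of the pathway were read in 6 lists. Among 28 further cytoskeletal targets of MRTF and SRF, of which 25 were tested against ELA, 8 were called lower and 0 higher in AZA − ELA, where 11.4% and 14.3% of all genes were. In CHQ − ELA, 8 were called lower and 2 higher, where 11.9% and 14.8% of all genes were. Their medians were -0.39 and -0.70. The sarcomeric actins differed most. Actc1, the cardiac actin, was at 10.01 in ES, 11.45 in ELA, 6.15 in AZA and 6.15 in CHQ, and because it was not detected on the treated arrays its intensity there was at least 33.0-fold and at least 32.5-fold lower than in ELA. Acta1, the skeletal muscle actin, was at 11.01, 9.68, 6.57 and 6.54, with a difference of -3.11 for AZA − ELA. It was not detected in CHQ, where its intensity was at least 8.81-fold lower than in ELA. Of the cytoplasmic actins, Actb gave -0.15 and -0.16 for AZA and CHQ − ELA on its single probe. Actg1 gave -0.29 and -0.27 on the brightest of 5 probes, but -1.65 and -1.87 at the lowest.

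Zyx and Ccn1 of that list were lower with both treatments. Zyx, whose product zyxin sits at focal adhesions, gave -1.84 for AZA − ELA and -1.98 for CHQ − ELA. Ccn1, a matricellular protein gene, gave -2.35 and -1.84. Other genes of the list went the opposite way with CHQ. Cald1, the actin-binding caldesmon, was at 10.10 in ES, 9.31 in ELA, 9.70 in AZA and 11.20 in CHQ, and Ccn2, which encodes connective tissue growth factor, at 13.87, 12.77, 12.63 and 14.33. Thbs1, which encodes thrombospondin, was called lower with AZA only, at -1.72 against -0.47 with CHQ, and CHQ − AZA was 1.26. Lima1, a LIM domain actin-binding gene, was called lower with CHQ, where it was at 8.56 against 9.84 in ELA and 10.54 in AZA.

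The cofactors and the immediate early targets of SRF were read in the same way. Mrtfa and Mrtfb, the actin-regulated cofactors, gave -0.83 and -0.24 for AZA − ELA and 0.25 and 1.01 for CHQ − ELA, and both were called higher in CHQ − AZA (1.08 and 1.25). The probes of both genes disagreed in sign in CHQ − ELA, where the lowest gave -0.28 for Mrtfa and -0.44 for Mrtfb, and the lowest Mrtfb probe gave -0.11 in CHQ − AZA. Elk3, an Elk family cofactor, was called higher with both treatments at its brightest probe (1.13 and 1.02), where the lowest of its probes gave -0.48 and -0.55. Of 8 immediate early targets tested in CHQ − ELA, 4 were called higher (14.8% of all genes) and 0 lower (11.9%). Of 7 tested in AZA − ELA, 1 was called higher (14.3% of all genes) and 3 lower (11.4%). Fos, a subunit of the AP-1 factor, was at 8.35 in ES, 10.42 in ELA, 11.18 in AZA and 12.84 in CHQ, and Egr1, a zinc finger factor, at 11.86, 13.36, 13.96 and 14.48. Fos and Egr1 thus had their highest level on the array where Myl9 had its lowest. Mcl1, a survival gene of the Bcl2 family, was called higher than in ELA with AZA (1.76) and with CHQ (2.46), and Nr4a1 with CHQ (1.65). With AZA, Fosb, Egr2 and Ier2 were called lower than in ELA (-2.37, -1.74 and -1.02), and CHQ − AZA was 2.73 for Fosb and 2.55 for Egr2.

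The light chain genes Myl12a and Myl12b did not share the low level of Myl9 with the inhibitors. Of 17 tested genes of myosin II and its regulators, 3 were called lower with AZA (11.4% of all genes) and 5 with CHQ (11.9%), and 0 were called higher (14.3% and 14.8%). The AZA count is near the share over all genes. Myl12a and Myl12b, the non-muscle regulatory light chains, gave -0.22 and 0.04 for AZA − ELA and -0.27 and 0.38 for CHQ − ELA. Myl12a was at 16.58 in ES, 16.14 in ELA, 15.92 in AZA and 15.87 in CHQ, and Myl12b at 14.38, 14.45, 14.48 and 14.83, so neither showed a difference of the size seen for Myl9. Myl6b, another light chain gene of this list, gave -0.40 for AZA − ELA and was called lower in CHQ − ELA (-1.17). Myh9, the heavy chain of non-muscle myosin IIA, gave -0.15 and -0.67, and Myh10, that of myosin IIB, gave -2.24 and -1.31 at its brightest probe and -0.21 and -0.26 at the other. The RhoA family member Rhoc, which acts upstream of myosin, was at 14.90 in ES, 14.64 in ELA, 14.17 in AZA and 13.15 in CHQ, and the phosphatase inhibitor gene Ppp1r14b gave -1.26 and -1.36. Mylk, the smooth muscle myosin light chain kinase, was between 6.34 and 6.72 on all arrays, near the floor.

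Of the light chains of striated muscle, Myl3, a ventricular essential light chain, was at 9.59 in ES, 10.29 in ELA, 7.43 in AZA and 6.86 in CHQ. Myl4 and Myl7, the atrial light chains, were higher in AZA than in ELA (2.21 and 1.04) and gave -0.75 and -0.66 with CHQ. Myl2, the ventricular regulatory chain, was higher with both (2.02 and 1.08). Low light chain levels in CHQ were therefore not shared by all light chains.

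Because TGF-beta induces smooth muscle genes, 11 of its ligands, receptors and targets were read as well. Of these, 3 were called higher with AZA (14.3% of all genes) and 4 with CHQ (14.8%). That 0 were called lower is near the 11.4% and 11.9% of all genes. Smad7, an inhibitory SMAD that TGF-beta induces, was at 11.20 in ES, 8.45 in ELA, 11.91 in AZA and 11.43 in CHQ. In this target the treated arrays lay near ES, whereas Myl9, Acta2 and Tagln lay far below it. The medians of the lists differ by sign between settings where they are near 0, as for the immediate early and TGF-beta lists in AZA − ELA (0.14 and 0.11, and -0.32 and -0.21 with spike-in scaling). The medians of the further cytoskeletal targets against ELA kept their sign in all settings tried but moved to -0.75 and -1.06 at the 75th percentile and to -0.98 and -1.43 with spike-in scaling.

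**Figure D4:**
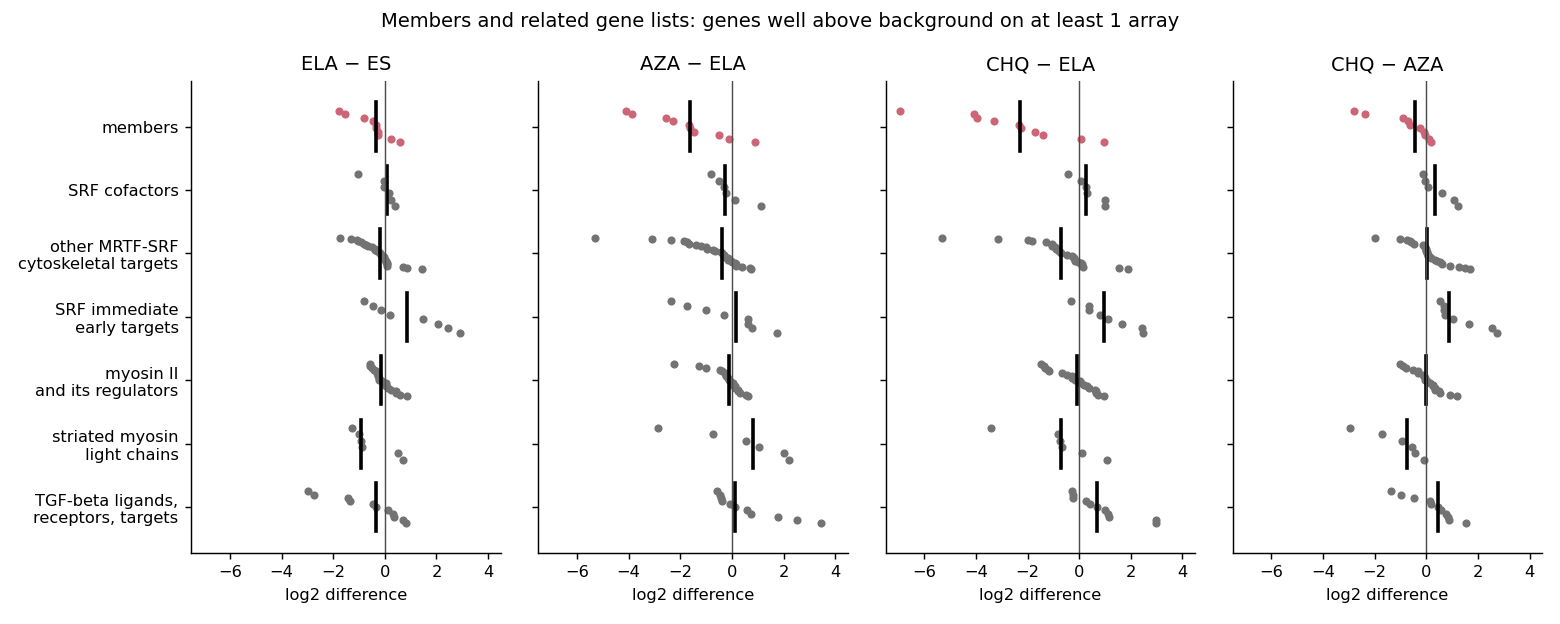
Log2 difference (x axis) of single genes (points) in the members and in 6 related gene lists (y axis), with 1 panel per comparison. Only genes detected on 1 or more arrays are drawn and black bars are list medians; the bar of the members lies at -2.30 in CHQ − ELA, while that of the immediate early targets lies at 0.97.

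Markers of other cell types also differed between the arrays. The summed intensity of 7 fibroblast or mesenchyme markers was 5721 in ES, 14080 in ELA, 8828 in AZA and 4040 in CHQ, with 5 to 7 of them detected and Thy1 as the largest term on every array. In this list Col1a2, a fibrillar collagen chain, was at 8.73, 9.56, 7.69 and 7.57, and Thy1, a surface antigen, at 12.08, 13.58, 12.78 and 11.27, while Col3a1 lay between 6.67 and 6.98, near the floor. Col1a1 and Pdgfrb, a growth factor receptor gene, were called higher with AZA (1.30 and 1.90), and Pdgfra, its relative, was not detected in ELA and was at 7.85 in CHQ. The summed intensity of 6 cardiac or skeletal muscle markers was 7664, 7107, 5201 and 7638, with 3 of them detected in ES and ELA and 6 in AZA and CHQ. Myh7, a cardiac myosin heavy chain, was called higher with both treatments (1.75 and 2.83), Tnnt2, cardiac troponin T, was called higher with AZA, and Myh6, the other cardiac heavy chain, was called lower with both (-1.42 and -1.03) at its brightest probe, where its other probe gave -0.12 and -0.04. The skeletal muscle factors Myod1 and Myog stayed close to the floor (6.13 to 7.04). The part of these cells in the values of the members was not tested.

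The neighbours of Myl9 on chromosome 2 were read as well. Of 19 further gene names with a probe within 250 kb of the Myl9 probe, 18 were detected on 1 or more arrays. Of these, 8 were counted as having an ordinary gene symbol. Epb4.1l1, a named gene whose symbol holds a dot, was not among the 8. It gave 0.86 for AZA − ELA and 0.97 for CHQ − ELA and was called in no comparison. Dlgap4, whose probe lies 18.7 kb from that of Myl9, was at 13.33 in ES, 13.00 in ELA, 13.55 in AZA and 14.02 in CHQ, and was called higher in CHQ − ELA (1.02). Tgif2, a homeobox repressor gene 72.6 kb away on the other side, was at 10.08, 10.47, 9.40 and 8.95 and was called lower in AZA − ELA (-1.07) and CHQ − ELA (-1.52). Ndrg3 was at 11.02, 10.85, 10.48 and 9.85 and just reached a call in CHQ − ELA. Aar2 gave -0.64 and -0.58. Rab5if, Sla2 and Dsn1 gave differences between -0.85 and -0.03 in these comparisons, and Soga1 -1.01 and 0.28. Over the 8 genes the values ran from -1.07 to 0.55 for AZA − ELA and from -1.52 to 1.02 for CHQ − ELA. Myl9 was selected for its own value, so the distance between these ranges and its -4.11 and -6.93 is a description.

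**Figure D5:**
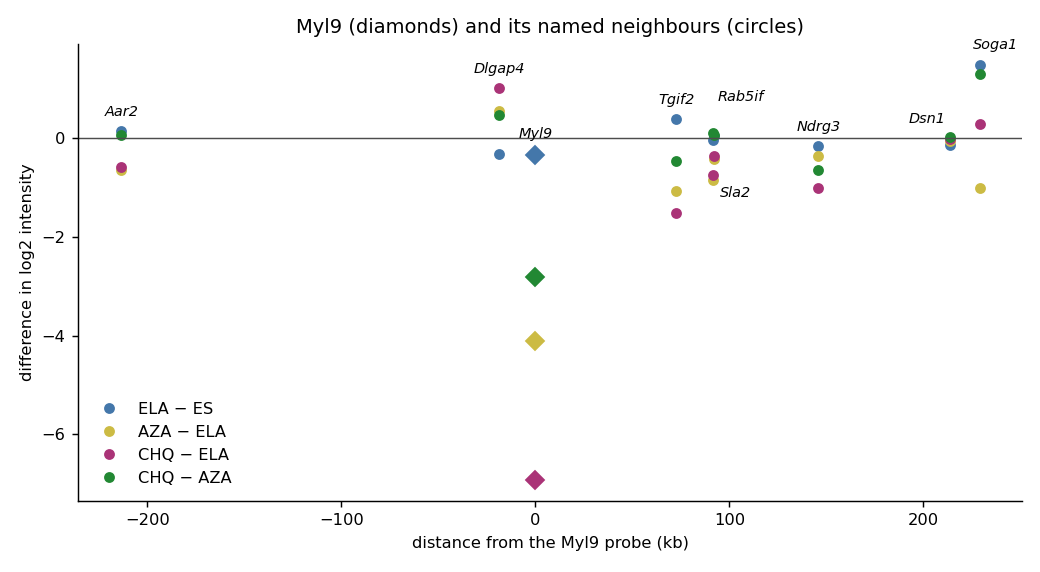
Difference in log2 intensity (y axis) against distance from the Myl9 probe in kb (x axis), coloured by comparison. Diamonds are Myl9 and circles the 8 detected neighbours counted as having an ordinary symbol, without Epb4.1l1. CHQ − ELA is -6.93 for Myl9 and lies between -1.52 and 1.02 for these neighbours.

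Genes whose profile was most like that of Myl9 were found by the Euclidean distance between mean-centred log2 profiles over the 4 arrays. The nearest with an ordinary symbol was Plac8, at 13.17 in ES, 11.98 in ELA, 8.48 in AZA and 7.65 in CHQ (distance 1.94), a small cysteine-rich protein gene. Acta2 (2.34), Tagln (2.60) and Cnn2 (2.62) came close behind, at distances too alike to set their order. Actc1 was also among the first 5, but it was not detected in AZA and CHQ, so its distance is not given. Of the other members, Tpm2 ranked 40, Cnn1 85, Srf 240 and Tpm1 431, while Tagln2 ranked 12304. The likeness rests on 4 values per gene, which share their arrays and slides, and the members were chosen with the Myl9 value known.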

How the data were processed

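The authors read spots of single-colour (Cy3) arrays with Agilent Feature Extraction, version 10.7.3.1 per the file headers (9.1 in the submitters' processing notes). The deposited scanner files hold intensity values that were not normalised between arrays. The authors' deposited value table holds log2 values and served as an alternative. Spot means were corrected by normexp on the local background (offset 50) and quantile-normalised over the 4 arrays with limma 3.58.1 in R 4.3.3, control and outlier spots were then dropped, and spots of a probe were averaged. The accession of 47.7% of probes was found in a RefSeq table (GRCm38.p6) and gave the gene name, and each gene was read by its brightest probe. Probe coordinates are mm9. With 1 array per group no test was made, and a call rests on size alone, with the thresholds of the study's methods for size and level. The number of arrays limits the precision. The procedure was tested on simulated data, with changes placed only on genes bright in ELA and with no slide effect. That test cannot speak to the slide or to genes near the floor. Members and gene lists were chosen with earlier results of these data known. The text names all members, genes of each list called in a comparison, at most 5 by size (any gene of a list under 10), the 5 nearest profiles, the neighbours of Myl9 and markers. Actb, Actg1, Myl12a, Myl12b, Myh9 and Mylk were named outside this rule, after their values were seen. An array with a knockdown is not analysed here.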

Additional observations from a re-analysis of the deposited data

How the results depend on the processing

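Every call among the members against ELA pointed down in each of the 6 settings tried, which were no background correction, normexp without an offset, processed signals at the 75th percentile, scaling to 7 E1A spike-in probes, the mean over probes and the authors' value table. From 6 to 8 members were called in AZA − ELA, 7 or 8 in CHQ − ELA and 2 or 3 in CHQ − AZA, also without a filter on level or for a difference of at least 1.5, which gave the lowest counts against ELA. The share of all genes called lower ranged from 10.2% to 21.7%, 10.6% to 33.0% and 4.34% to 7.04% over the 6 settings, highest with spike-in scaling, and was 4.66%, 4.61% and 1.93% for a difference of at least 1.5. A value was taken to move when it shifted by at least 0.226, the spread of a difference between repeated spots. With spike-in scaling the median of all genes became -0.51 for ELA − ES, -0.56 for AZA − ELA, -0.75 for CHQ − ELA and -0.22 for CHQ − AZA, so values with it are best read relative to these. Myl9 was then -1.08, -4.48 and -7.51 in the first 3 of these comparisons, the median of the members -1.03, -1.91 and -2.77, and 5 members were called in ELA − ES. Relative to the median of all genes, Myl9 in CHQ − ELA stayed between -7.52 and -6.70. Myl9 also moved in CHQ − ELA to -7.29 without an offset, -7.57 at the 75th percentile and -7.58 in the authors' table, and in CHQ − AZA to -3.14, -3.28 and -3.28. The setting without an offset differed from the main one in the offset alone. The cause of the other moves was not tested. Of 216 values of the other members, 161 stayed within that spread, 55 moved and 0 called values changed sign. The share of all calls that were higher was 44.3% for ELA − ES, 55.7% for AZA − ELA, 55.5% for CHQ − ELA and 53.5% for CHQ − AZA, and 7.46%, 32.8%, 21.1% and 35.7% with spike-in scaling, and 48.7% in AZA − ELA and 42.0% in CHQ − ELA at the 75th percentile. With spike-in scaling the number of all genes called went from 1904 to 4346 in ELA − ES and from 5101 to 7737 in CHQ − ELA. No paired analysis was possible because each group has 1 array, and for the same reason no array could be left out.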
